A study of Mus musculus with 12 samples.

Results

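The 10 mouse genes of antigen presentation described here were the class I heavy chains H2-K1, H2-D1 and H2-M3, the light chain B2m, the immunoproteasome subunits Psmb8 and Psmb9, the peptide transporter subunits Tap1 and Tap2, and the class II genes H2-Aa and Cd74. They were taken by name, as every probe set of the array whose gene symbol is or includes 1 of these 10 genes. This gave 32 of the 45037 probe sets tested, and the 10 genes are 10 of 18193 genes with at least 1 probe set of a single symbol. Of the 32 probe sets, 29 carried 1 symbol (9 for H2-D1, 4 each for H2-K1, H2-Aa and Tap1, 2 each for B2m and Psmb8, and 1 each for the other 4 genes). The other 3 carried several symbols and are named below by probe set with all of them.

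Class I molecules show short peptides from a cell's own proteins to CD8+ T cells. The peptides are cut by the proteasome, whose subunits Psmb8 and Psmb9 replace constitutive ones under interferon, and are carried into the endoplasmic reticulum by the Tap1/Tap2 transporter, where they load a heavy chain paired with beta-2 microglobulin. Class II molecules, among them the H2-Aa chain, show peptides from the endocytic route on specialised antigen-presenting cells, with Cd74 as the invariant chain that guards the groove until loading. The neural retina is known as an immune-privileged tissue with little of either at rest.

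The study asked how the retinas of 2 mouse strains differ in their response to damage. RNA from the neural retina of 10-week-old mice, male per the methods, was hybridised to 12 one-colour Affymetrix arrays, in 6 groups of 2. For strain 129 (129X1/SvJJmsSlc) the groups were retina cultured for 3 days with CHIR99021 at 15 µM, retina cultured for 3 days without it (3DIV, called vehicle here because, per the methods, controls received the DMSO vehicle together with the nucleoside EdU), and intact retina (normal). For strain B6 (C57BL/6NCrSlc) the same 3 groups were CHIR99021, 3DIV and normal. CHIR99021 is an inhibitor of the kinase GSK3, and explant culture was the damage. No transgene or deleted allele was named for either strain. Both arrays of a group are named as biological replicates. Whether they came from separate animals is not stated in the sources used here, so that p-values measure the spread between these samples.

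Array medians lay between 68.7 and 70.6, and arrays of a group correlated at 0.9965 to 0.9978. The summed intensity of 8 rod genes, the defining genes of this tissue, was 27409 to 29609 on the 129 CHIR99021 arrays, 37005 to 40886 on the 129 3DIV arrays, 76909 to 78603 on the 129 normal arrays, 27802 to 28136 on the B6 CHIR99021 arrays, 40352 to 41333 on the B6 3DIV arrays and 72971 to 74403 on the B6 normal arrays. In whole tissue, fewer cells of a type and less RNA per cell cannot be told apart. Among 8 lens genes, the summed intensity was 1028 to 25961 on the 129 normal arrays and 249 to 580 on all the other groups' arrays. Pigmented epithelium genes were also high on the normal arrays (4177 to 10734, against 425 to 538 in the explants). The part of these tissues in the results below was not tested.

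Stretches upstream of the members are shown because the class I heavy chains and B2m are known to share short regulatory letters there. The sequences are those of RefSeq for build GRCm38.p6, in which 8 of the 10 genes were matched by symbol. The 250 bases before each start were searched on both strands for 6 short patterns, which were chosen from general knowledge of these genes after the values were known. They were GGGATTCCC (core of the NF-kappaB letters of the class I enhancer A), GAAANNGAA (letters of the interferon-stimulated response element), TTTCACTT (core of the class I interferon consensus), TTCNNNGAA (gamma-activated site), TGACG (X2 box core) and CTGATTGG (Y box). Matches are in capitals, and no match of one pattern overlapped a match of another, while in H2-Aa a TGACG match on each strand overlapped as TGACGTCA. In this build B2m lies on chromosome 2 and the other 7 matched genes on chromosome 17.

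H2-K1 is on the minus strand and listed with 2 starts, of which the more upstream was used, and its stretch was chr17:34000348-34000487. The gene record of the same build reaches further upstream, to base 34000619, so that this stretch lies inside the record. The stretch of H2-D1 was chr17:35262914-35263093 and that of H2-M3 chr17:37270094-37270233 (both plus strand).
H2-K1: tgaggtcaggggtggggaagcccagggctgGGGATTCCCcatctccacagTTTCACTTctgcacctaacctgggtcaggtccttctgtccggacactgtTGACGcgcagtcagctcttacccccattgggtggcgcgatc
H2-D1: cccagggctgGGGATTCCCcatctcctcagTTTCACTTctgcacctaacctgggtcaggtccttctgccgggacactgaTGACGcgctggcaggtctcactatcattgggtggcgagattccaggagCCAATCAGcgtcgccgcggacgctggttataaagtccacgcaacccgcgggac
H2-M3: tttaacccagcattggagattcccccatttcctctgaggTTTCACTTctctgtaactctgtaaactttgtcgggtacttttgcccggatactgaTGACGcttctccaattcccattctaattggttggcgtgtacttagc

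GGGATTCCC was found in H2-K1 and H2-D1 and in 99 of the 32851 promoters of the table (0.301%). H2-M3 held TTTCACTT and TGACG in the same order, but not the letters of enhancer A. TTTCACTT was in 3 of the 8 genes, these heavy chains, and in 1.36% of all promoters. A match is a description of the letters only.

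B2m stands for the light chain (chr2:122147537-122147686, plus strand) and H2-Aa for class II (chr17:34287824-34287963, minus strand). Psmb9 and Tap1 lie head to head, and the whole interval between their starts is shown on the strand of Tap1 (chr17:34187331-34187555).
B2m: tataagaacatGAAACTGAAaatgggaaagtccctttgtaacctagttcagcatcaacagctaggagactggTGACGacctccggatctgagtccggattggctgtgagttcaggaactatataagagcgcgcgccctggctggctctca
H2-Aa: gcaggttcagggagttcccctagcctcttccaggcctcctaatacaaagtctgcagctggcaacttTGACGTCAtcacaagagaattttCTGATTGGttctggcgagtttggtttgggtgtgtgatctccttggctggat
Psmb9-Tap1: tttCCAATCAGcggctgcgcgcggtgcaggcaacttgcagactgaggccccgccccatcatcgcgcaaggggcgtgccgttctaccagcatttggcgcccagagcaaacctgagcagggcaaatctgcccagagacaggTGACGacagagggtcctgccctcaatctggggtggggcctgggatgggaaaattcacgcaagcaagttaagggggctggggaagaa

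Of the 8 genes, B2m held GAAANNGAA (7.13% of all promoters), and H2-M3 and Psmb8 held TTCNNNGAA (7.02%). TGACG was in 7 of the 8, in all but Psmb8 (17.8% of all promoters), and CTGATTGG on either strand was in H2-D1, H2-Aa, Psmb9 and Tap1 (3.83%). The Y box letters and TGACG between Psmb9 and Tap1 are the same bases counted for both genes. H2-D1, H2-Aa, Psmb9 and Tap1 held both TGACG and CTGATTGG, with no limit set on their order or spacing. Other forms of the Y box were not searched, so that a gene without CTGATTGG may still hold such a box. A link between letters and levels was not tested.

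**Figure D1:**
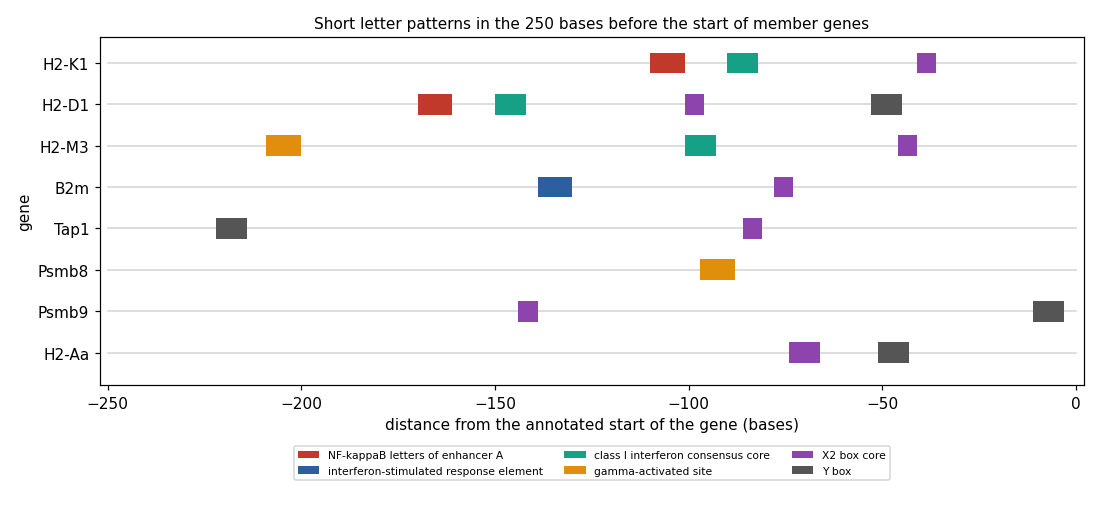
Position of the 6 letter patterns in the 250 bases before the listed start of 8 member genes (x axis, bases from the start; 1 line per gene; colour marks the pattern). H2-K1 and H2-D1 hold the enhancer A letters followed by the interferon consensus core, and TGACG is in 7 of the 8 genes.

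Explant culture gave the largest differences. All 8 members of the class I route were higher in the 3DIV explants than in normal retina of both strains, read on the most abundant probe set of each gene, whereas the class II genes H2-Aa and Cd74 were not. The differences ran from 0.43 to 4.96 on the log2 scale in 129 and from 0.97 to 4.31 in B6. Over the 32 probe sets, 20 were called higher and 0 lower in 129 (limma, Benjamini-Hochberg adjusted p under 0.05 over all probe sets), where 30.6% of all probe sets were called, 14.7% higher and 15.9% lower. In B6, 19 were called higher and 2 lower, against 31.5% of all probe sets, 14.9% higher and 16.6% lower. The median difference of the 32 was 1.06 in 129 and 1.20 in B6, beside -0.03 and -0.02 over all probe sets.

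**Figure D2:**
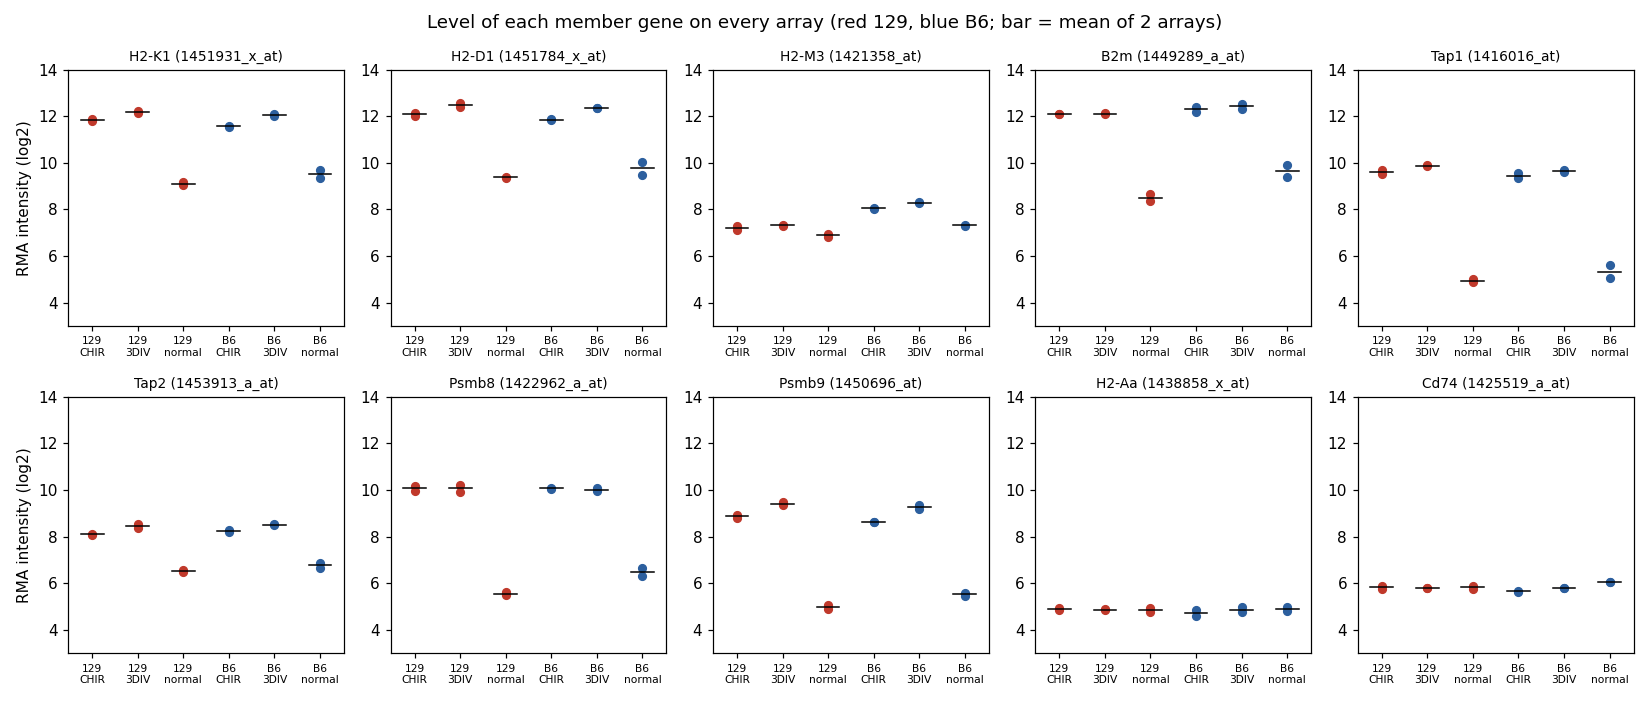
Log2 RMA intensity (y axis) of the most abundant probe set of each member gene on every array, with 129 in red and B6 in blue (points are arrays and bars the means of 2). The 8 class I genes were at their lowest in normal retina of each strain, and H2-Aa and Cd74 spanned less than 1 log2 unit over the 12 arrays.

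H2-K1 and H2-D1 encode the classical heavy chains. H2-K1 (1451931_x_at) had log2 levels of 12.24 and 12.12 in 129 3DIV explants and of 9.16 and 9.03 in 129 normal retina, an increase of 3.08 ± 0.11 (SE; 8.46-fold, adjusted p = 1.01e-08). In B6 the levels were 12.03 and 12.10 in 3DIV explants and 9.71 and 9.35 in normal retina, an increase of 2.54 ± 0.11 (adjusted p = 4.68e-08). Explant and normal arrays did not overlap in either strain.

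H2-D1 (1451784_x_at) stood at 12.55 and 12.39 in 129 3DIV explants, against 9.33 and 9.41 in 129 normal retina (3.10 ± 0.15, 8.59-fold, adjusted p = 7.62e-08). In B6 it stood at 12.35 and 12.37 in 3DIV explants, against 10.05 and 9.49 in normal retina (2.59 ± 0.15, 6.02-fold, adjusted p = 3.28e-07). H2-K1 and H2-D1 are near-identical over long stretches, and the probe sets used end in _x_at, the maker's mark for probes that can bind several transcripts. How the signal is divided between both genes is therefore uncertain.

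Of the 16 probe sets that name H2-K1 or H2-D1, 12 were called higher in 129 explants and 11 in B6 explants. They included 1426324_at of H2-D1, which does not carry the _x_at mark and rose 8.01-fold in 129 and 6.60-fold in B6. Probe set 1425614_x_at of H2-D1 was called in 129 alone (0.57, against 0.09 in B6). On 1427651_x_at of H2-D1 the rise was only 0.53 in 129 and 0.65 in B6. Probe set 1424948_x_at, which names H2-K1 and H2-D1 together, rose by 3.57 in 129 and by 2.77 in B6. Another 4 of these 16 (1451934_at and 1452544_x_at of H2-D1, 1422348_at of Gm38417, H2-Q2 and H2-D1, and 1451593_at of H2-Q5 and H2-K1) were called in none of the 7 comparisons of 2 groups. The probe sets of a gene thus disagreed. Of these 4, 1451934_at (4.08 to 4.47) and 1422348_at (4.51 to 4.89) lay below the array medians on every array.

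H2-M3, a non-classical heavy chain that binds N-formylated peptides, had the smallest increase of the class I route, read on the most abundant probe sets. Its levels were 7.29 and 7.33 in 129 3DIV explants and 6.95 and 6.82 in 129 normal retina (0.43 ± 0.08, adjusted p = 0.00207), and 8.30 and 8.26 in B6 3DIV explants, against 7.27 and 7.35 in B6 normal retina (0.97 ± 0.08, adjusted p = 6.01e-06). The 129 explants thus came to about the level of uncultured B6 retina.

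B2m, the light chain of every class I molecule, rose by 3.62 ± 0.16 in 129 (12.3-fold, adjusted p = 3.69e-08). Its levels on 1449289_a_at were 12.13 and 12.08 in the explants, against 8.34 and 8.64 in normal retina. In B6 the explants had 12.33 and 12.53, against 9.90 and 9.39 in normal retina (2.79 ± 0.16, 6.90-fold, adjusted p = 2.91e-07). The other B2m probe set, 1452428_a_at, gave 3.47 in 129 and 2.71 in B6.

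The immunoproteasome subunits rose more than the heavy chains. Psmb8 (1422962_a_at) had 10.22 and 9.92 in 129 3DIV explants, against 5.50 and 5.61 in 129 normal retina (22.8-fold, adjusted p = 2.60e-09), and 9.94 and 10.09 in B6 3DIV explants, against 6.66 and 6.32 in B6 normal retina (11.5-fold, adjusted p = 1.93e-08). Its other probe set, 1444619_x_at, rose by only 0.83 in 129 and 0.86 in B6. Psmb9 (1450696_at) had 9.48 and 9.36 in 129 3DIV explants, against 5.08 and 4.90 in 129 normal retina (21.5-fold, adjusted p = 3.41e-10), and 9.35 and 9.20 in B6 3DIV explants, against 5.59 and 5.45 in B6 normal retina (13.5-fold, adjusted p = 1.98e-09). Explant and normal arrays of both genes lay far apart in each strain. The normal levels of Psmb9 in both strains and of Psmb8 in 129 lay below the array medians, so that the size of these folds is uncertain.

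Of all members, Tap1 had the largest difference. On 1416016_at it stood at 9.85 and 9.91 in 129 3DIV explants, against 4.86 and 4.99 in 129 normal retina (4.96 ± 0.15, 31.0-fold, adjusted p = 3.41e-09), and at 9.67 and 9.60 in B6 3DIV explants, against 5.60 and 5.05 in B6 normal retina (4.31 ± 0.15, 19.8-fold, adjusted p = 1.25e-08). Another 3 Tap1 probe sets did not pass in any comparison, and the transcript regions they cover were not examined. All 3 lay below the array medians on every array (1420274_at at 2.47 to 2.85, 1449803_x_at at 2.89 to 3.44 and 1448177_at at 5.01 to 5.70). The normal levels of 1416016_at lay below the array medians as well, so that the size of its folds is uncertain. Tap2, its partner in the transporter, rose by 1.91 ± 0.09 in 129 (8.53 and 8.35 in explants, against 6.50 and 6.55 in normal retina) and by 1.75 ± 0.09 in B6 (8.51 and 8.53, against 6.67 and 6.87).

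The class II members did not share in this. H2-Aa, the alpha chain of I-A, lay between 4.58 and 4.96 on all 12 arrays on its most abundant probe set, and none of its 4 probe sets was called higher. All probe sets of H2-Aa and that of Cd74 lay below the array medians on every array. Without detection calls, an undetected transcript and an unchanged low one cannot be told apart. Probe set 1435290_x_at of H2-Aa was called lower in B6 explants (3.75 and 3.74, against 4.34 and 4.14 in normal retina). Cd74 had 5.80 and 5.79 in 129 3DIV explants, against 5.76 and 5.90 in 129 normal retina (-0.04, 95% interval -0.21 to 0.13), and 5.80 and 5.81 in B6 3DIV explants, against 6.07 and 6.07 in B6 normal retina (-0.27, adjusted p = 0.0225). Neither class II call was stable: each was lost when any single B6 3DIV or B6 normal array was left out (-0.27 to -0.26 for Cd74 and -0.60 to -0.40 for H2-Aa), and that of H2-Aa also without either 129 CHIR99021 array (-0.50 each time). With arrays centred on housekeeping genes the 2 lower calls in B6 became 0 and the 19 higher ones stayed 19 in number.

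**Figure D3:**
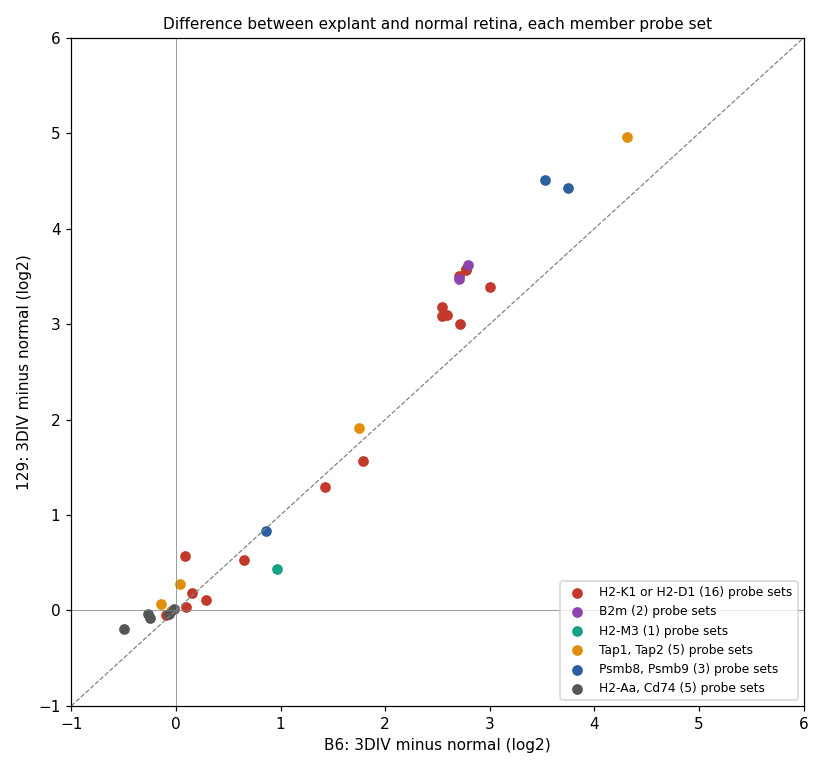
Difference between 3DIV explant and normal retina (log2) of each of the 32 member probe sets, in 129 (y axis) against B6 (x axis), coloured by role. The broken line marks equal differences. The most abundant probe sets of Tap1, Psmb8 and Psmb9 lie farthest from 0 in both strains. The other Tap1 probe sets lie near 0, as do those of H2-Aa and Cd74, and 1444619_x_at of Psmb8 lies at 0.83 in 129 and 0.86 in B6.

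The rest of the class I route moved in the same direction in part. Of 12 measured genes of peptide supply and loading, 9 were higher and 0 lower in 129 explants, and 8 were higher and 1 lower in B6 explants, with medians of 0.51 and 0.32. Tapbp (tapasin, which bridges Tap and the heavy chain) rose by 2.66 in 129 and 2.31 in B6, and Psmb10, the third immunoproteasome subunit, by 2.64 and 2.30. Erap1, an aminopeptidase that trims peptides in the endoplasmic reticulum, rose by 1.68 and 1.02, from normal levels below the array medians. Psme1, a subunit of the proteasome activator PA28, rose by 1.35 and 1.40.

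Of 18 other class I genes listed, only 8 were measured, so that they cannot stand for the other class I genes as a whole. Among them H2-Q2 (2.67 to 3.33), H2-M9 (2.75 to 3.39), H2-Q10 and H2-Bl lay below the array medians on every array. At such levels an undetected transcript and an unchanged low one cannot be told apart without detection calls. Of the 8 measured genes, 3 were higher in 129 explants and 2 in B6 explants, with medians of 0.14 and 0.07. Apart from H2-T24 these calls were small and some were unstable. In 129 they were Cd1d1 (0.40), which presents lipids and was lost without any single 129 normal or 3DIV array, and H2-Bl (0.32), lost in 13 of 18 settings. In B6 they were Cd1d1 (0.70), kept in all 19, and H2-M9 (0.37), lost in 11 of 18. H2-T24, a non-classical class I gene, was higher only in 129, with a tested difference between strains. It had 7.38 and 7.21 in 129 3DIV explants, against 3.73 and 4.12 in 129 normal retina (3.37 ± 0.27, adjusted p = 3.87e-06), and 5.21 and 4.47 in B6 3DIV explants, against 4.65 and 5.29 in B6 normal retina (-0.13 ± 0.27, adjusted p = 0.765). The strain by culture interaction was 3.50 ± 0.38 (adjusted p = 0.00135), and it passed under all of the settings in which H2-T24 was tested. It rests on 1 probe set, which lay below the array medians on all B6 arrays and on the 129 normal arrays. In normal retina H2-T24 was called lower in 129 (-1.05, lost in 3 of 18 settings), and this gap is part of the interaction.

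Of 23 measured regulators, 12 were higher and 1 lower in 129 explants, and 10 were higher and 3 lower in B6 explants. Nlrc5, the transactivator of class I genes, had 9.48 and 9.46 in 129 3DIV explants, against 3.84 and 3.95 in 129 normal retina (5.57 ± 0.11, adjusted p = 2.57e-10), and 8.96 and 8.95 in B6 3DIV explants, against 4.24 and 4.63 in B6 normal retina (4.52 ± 0.11, adjusted p = 1.98e-09). Its class II counterpart Ciita did not pass in either strain (-0.07 in 129, 0.06 in B6), at levels below the array medians on every array (4.94 to 5.27). Irf8, Irf9 and Irf1, transcription factors of the interferon response, rose by 3.22, 3.10 and 3.03 in 129 and by 2.65, 3.02 and 2.04 in B6, and Stat2, the partner of Irf9, by 2.26 and 2.14. Nlrc5 and Irf8 lay below the array medians on every normal array.

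None of the 4 interferon genes measured, Ifng, Ifnb1, Ifna2 and Ifna4, passed in either strain (0 with limma, and 0 at an unadjusted p under 0.05), with differences of -0.24 to -0.02 in 129 and -0.15 to -0.03 in B6. All 4 lay below the array medians on every array. Ifng ran from 2.82 to 3.13, Ifna4 from 3.67 to 4.40, Ifnb1 from 4.29 to 5.16 and Ifna2 from 5.12 to 5.47. Undetected and unchanged transcripts cannot be told apart at such levels without detection calls. Of 11 other class II pathway genes, 4 were higher in 129 and 3 in B6. Those 3, the lysosomal proteins Ctss, Ctsl and Ifi30, were among the 4 in 129 as well, and the fourth was H2-DMa (0.47). H2-Eb1 and H2-Ea did not pass in either strain, and H2-Ab1, the beta chain that pairs with H2-Aa, was lower in B6 explants (-0.41). H2-Eb1 and H2-Ab1 lay below the array medians on every array. The H2-Ab1 call was lost without B6 normal replicate 1, without B6 3DIV replicate 2 and with housekeeping centring, at -0.55 to -0.28 over all settings. The Ctss call in 129 (0.30) was lost without any single 129 normal or 3DIV array.

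Cell type markers were read beside these values. Of 17 microglia and macrophage genes, 14 were higher in 129 explants (median 0.87) and 15 in B6 explants (median 1.70). Their summed intensity was 3293 to 3414 in 129 3DIV, against 1294 to 1343 in 129 normal retina, and 7830 to 8465 in B6 3DIV, against 1940 to 2086 in B6 normal retina. Of 8 endothelial genes, 5 were higher and 1 lower in 129 explants and 2 higher and 1 lower in B6 explants, with a summed intensity of 2994 to 3144 in 129 3DIV, against 1326 to 1510 in 129 normal retina, and of 2990 to 3208 in B6 3DIV, against 1394 to 1428 in B6 normal retina. Kdr, the most abundant of them, made up most of this sum. It had log2 means of 11.33 in 129 3DIV and 11.35 in B6 3DIV, against 9.98 and 9.85 in normal retina. Pecam1 had 4.94 and 5.26, against 5.04 and 5.08, and Tek 5.20 and 5.36, against 5.89 and 6.23. Of 8 Müller glia genes, 4 were higher and 2 lower in 129 explants (sums 27208 to 27343, against 26066 to 26903 in normal retina) and 6 higher and 2 lower in B6 explants (26424 to 27314, against 23277 to 23337 in normal retina). Within these sums Vim had log2 means of 13.20 in 129 3DIV and 13.03 in B6 3DIV, against 11.20 and 11.10 in normal retina. Glul had 12.39 and 12.61, against 13.55 and 13.48. Markers of other immune cells stayed in narrow ranges. Over all 12 arrays their sums ran from 272 to 341 for 6 T cell genes, from 205 to 257 for 5 B cell genes, from 281 to 320 for 7 dendritic cell genes and from 88 to 103 for 4 neutrophil genes. No marker gene was at 0 on any array, since the values carry no detection call. The part of microglia, endothelial cells and Müller glia in the class I values was not tested.

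In normal retina, 5 of the 8 class I route genes were lower in 129 than in B6 on their most abundant probe set, and H2-D1, Tap1 and Tap2 did not pass. Of the 32 member probe sets, 9 were called lower in 129 and 0 higher, beside 5.45% of all probe sets called lower and 6.07% called higher. The 9 were both of B2m, 3 of H2-K1, 1424948_x_at of H2-K1 and H2-D1, H2-M3, Psmb8 and Psmb9. The median difference of the 32 was -0.23, and 0.01 over all probe sets.

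B2m had the largest gap, with 8.34 and 8.64 in 129 normal retina, against 9.90 and 9.39 in B6 normal retina (-1.15 ± 0.16, 2.23-fold lower, adjusted p = 7.10e-04). Psmb8 followed, with 5.50 and 5.61 in 129, against 6.66 and 6.32 in B6 (-0.93 ± 0.13, adjusted p = 0.00105), and Psmb9 had 5.08 and 4.90, against 5.59 and 5.45 (-0.53 ± 0.10, adjusted p = 0.00459). In all 3 genes the arrays of both strains did not overlap, which describes genes already called and adds no support. Psmb9 and Tap1 on every normal array, and Psmb8 on those of 129, lay below the array medians. Without detection calls, the size of their strain differences is uncertain. H2-D1 and Tap1 were at -0.40 each without passing (adjusted p = 0.116 for H2-D1 and 0.129 for Tap1). No probe set of H2-D1 alone was called, and they did not all point one way (0.21 on 1450170_x_at and 0.14 on 1427651_x_at). Neither 1444619_x_at of Psmb8 (0.13) nor 1450534_x_at of H2-K1 (0.02) was called.

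The size of these gaps depended on the B6 normal arrays. Replicate 1 was above replicate 2 for 14 of the 19 member probe sets that rose in both strains, by a median of 0.39, and the median absolute gap in the other 5 groups was 0.10 to 0.13. For B2m the strain difference was -0.90 without B6 normal replicate 1 and -1.41 without replicate 2, and it passed both times. For H2-D1 it was -0.12 and -0.68, and only the second passed. The calls of B2m, Psmb8 and Psmb9 passed under all 19 settings tried. H2-K1 (1451931_x_at) was lost in 5 of the 19, among them without B6 normal replicate 1 (-0.25), 129 normal replicate 1 (-0.49) or 129 normal replicate 2 (-0.36). 1427746_x_at of H2-K1 was lost without B6 normal replicate 1 (-0.41) or 129 normal replicate 2 (-0.59), 1424948_x_at without B6 normal replicate 1 (-0.51) or 129 normal replicate 1 (-0.68), and H2-M3 without 129 normal replicate 2 (-0.36). With arrays centred on housekeeping genes, 8 member probe sets were lower and 1 higher (1450170_x_at of H2-D1, 0.31). Microglia genes were also lower in 129 normal retina (9 of 17, median -0.55), and that part was not tested.

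After 3 days of culture most of the strain gap was not seen. In the vehicle explants, 1 member probe set differed, H2-M3, which was lower in 129, beside 20.0% of all probe sets called and 8.57% called lower. Its levels were 7.29 and 7.33 in 129 3DIV, against 8.30 and 8.26 in B6 3DIV (-0.97 ± 0.08, 1.96-fold lower, adjusted p = 2.15e-05). With CHIR99021 it had 7.27 and 7.10 in 129, against 8.07 and 8.02 in B6 (-0.86 ± 0.08, adjusted p = 5.69e-05). H2-M3 was thus lower in 129 in all 3 states, and in neither explant state did the arrays overlap.

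For the other 7 class I genes the difference in vehicle explants lay between -0.32 and 0.25, none passing. The 95% interval was -0.13 to 0.36 for H2-K1, -0.25 to 0.34 for Psmb8, -0.09 to 0.59 for Tap1 and -0.67 to 0.02 for B2m. Its second probe set, 1452428_a_at, stood at -0.46 (adjusted p = 0.0776) and passed in several other settings. The same explants differed in microglia genes, of which 16 of 17 were lower in 129 (median -1.08).

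In the CHIR99021 explants 2 member probe sets passed, 1 higher and 1 lower in 129, beside 10.9% of all (6.01% higher and 4.88% lower). They were H2-M3 and 1450170_x_at of H2-D1, which had 5.73 and 5.65 in 129, against 5.12 and 5.22 in B6 (0.52 ± 0.09, adjusted p = 0.00279). This H2-D1 probe set lay below the array medians on every array, and the other H2-D1 probe sets did not pass. Of 17 microglia genes, 12 were lower in these 129 explants (median -0.56).

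**Figure D4:**
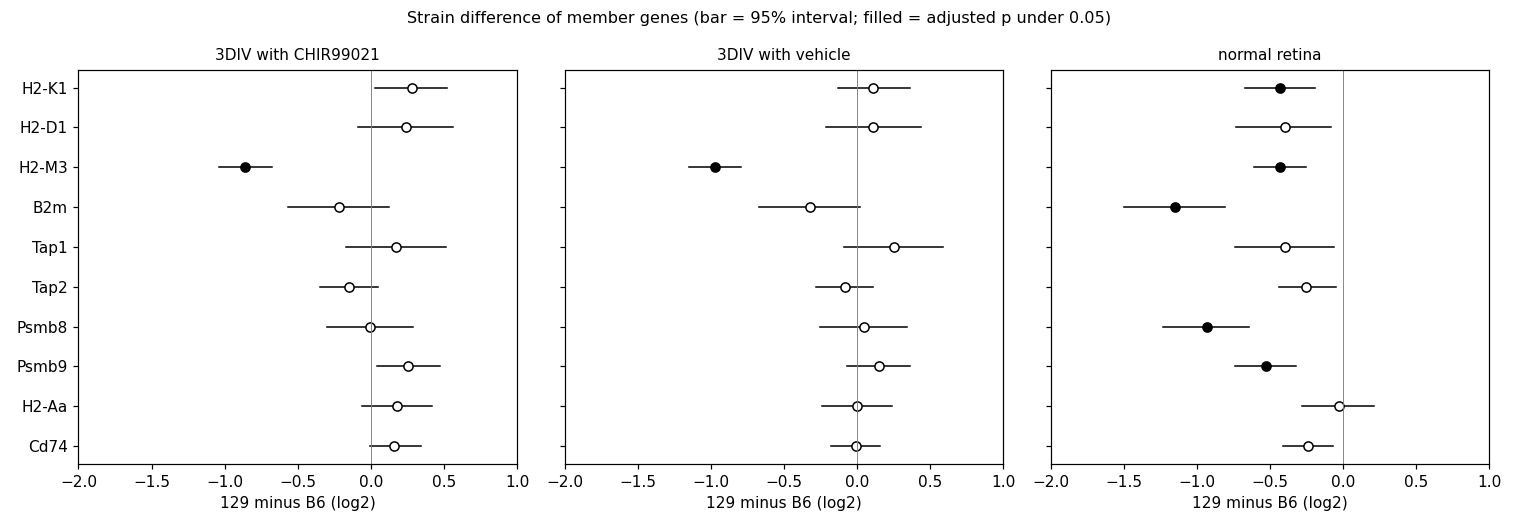
Difference of 129 minus B6 (x axis, log2; bars are 95% intervals) for the most abundant probe set of each member gene in CHIR99021 explants, vehicle explants and normal retina. Filled points have an adjusted p under 0.05, which in the explants holds for H2-M3 alone and in normal retina for 5 of the 10 genes.

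The difference between strains in the culture response was tested as an interaction (129 minus B6). It was called for 5 of the 32 member probe sets, 4 higher and 1 lower, beside 2.58% of all (1.55% higher and 1.03% lower): Psmb8 (0.98 ± 0.19, adjusted p = 0.0246), Psmb9 (0.68 ± 0.14, adjusted p = 0.0289), 1425336_x_at and 1427746_x_at of H2-K1 (0.81 ± 0.18, adjusted p = 0.0394, and 0.79 ± 0.18, adjusted p = 0.0473) and H2-M3 (-0.54 ± 0.11, adjusted p = 0.0358). On these probe sets Psmb8, Psmb9 and H2-K1 rose more in 129, and their 3DIV levels did not pass the test between strains. H2-M3 rose more in B6. The normal levels of Psmb9 in both strains and of Psmb8 in 129, on which these values rest, lay below the array medians. The interaction was not called on 1444619_x_at of Psmb8 (-0.02) or on 1451931_x_at (0.54) and 1450534_x_at (-0.13) of H2-K1. B2m (0.83, adjusted p = 0.0804) and Tap1 (0.65, adjusted p = 0.152) did not pass. These calls depended on single arrays. The count was 1 without 129 3DIV replicate 2 and 0 without its replicate 1, and it was 0 without 129 normal replicate 2 and 1 without its replicate 1. On the B6 side it was 0 without 3DIV replicate 2 and 1 without replicate 1, and 12 without normal replicate 2 and 0 without replicate 1. It was 3 without either 129 CHIR99021 array and 2 without either B6 CHIR99021 array. Without B6 normal replicate 1 the values were 0.81 for Psmb8, 0.60 for Psmb9, 0.60 and 0.59 for H2-K1 and -0.50 for H2-M3, so that the directions stayed.

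Among the regulators, Nlrc5 (1.05 ± 0.16, adjusted p = 0.00939) and Irf1 (0.99 ± 0.11, adjusted p = 0.00131) also rose more in 129. Both passed under all 19 settings, though Nlrc5 lay below the array medians in normal retina of both strains. Irf1 had 10.16 and 10.17 in 129 3DIV, against 9.25 and 9.18 in B6 3DIV, and 7.15 and 7.13 in 129 normal retina, against 7.21 and 7.15 in B6 normal retina. Unlike the members above, Irf1 did not differ between strains in normal retina beyond its spread (-0.04) and did in vehicle explants (0.95). Erap1 had an interaction of 0.65 (adjusted p = 0.0144; lost without B6 3DIV replicate 2 or either 129 3DIV array, 0.52 to 0.68), and its strain difference in vehicle explants was -0.07 (adjusted p = 0.595).

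CHIR99021 lowered a few members slightly. In 129, 5 of the 32 probe sets were called lower with CHIR99021 and 0 higher, beside 6.38% of all probe sets called lower and 5.87% called higher. In B6, 11 were called lower and 0 higher, beside 9.18% and 9.42%. The medians of the 32 were -0.13 in 129 and -0.17 in B6, and 0.01 and 0.00 over all probe sets.

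Psmb9 was the member that passed in both strains under all 19 settings. It had 8.94 and 8.81 in 129 CHIR99021 explants, against 9.48 and 9.36 in 129 vehicle explants (-0.54 ± 0.10, 1.46-fold lower, adjusted p = 0.00494), and 8.61 and 8.64 in B6 CHIR99021 explants, against 9.35 and 9.20 in B6 vehicle explants (-0.65 ± 0.10, 1.57-fold lower, adjusted p = 0.00121). With and without the inhibitor the arrays did not overlap. Psmb8, which works in the same particle, was 0.00 in 129 (95% interval -0.29 to 0.30) and 0.06 in B6 (-0.23 to 0.36).

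H2-K1 (1451931_x_at) had 11.89 and 11.80 with CHIR99021, against 12.24 and 12.12 with vehicle, in 129 (-0.34 ± 0.11, adjusted p = 0.0735), and 11.60 and 11.54, against 12.03 and 12.10, in B6 (-0.50 ± 0.11, adjusted p = 0.0099). All 4 H2-K1 probe sets fell in B6 (-0.55 to -0.50) and 2 of them in 129. H2-D1 fell in B6 on 5 of its 9 probe sets, the largest on 1450170_x_at (-0.76 ± 0.09, adjusted p = 2.57e-04), with 5.12 and 5.22 under CHIR99021, against 5.90 and 5.95 under vehicle. That probe set lay below the array medians on every array (4.08 to 5.98). In 129, H2-D1 was called lower on 1425614_x_at alone (-0.31, lost in 7 of 18 settings), at levels below the array medians on every array (3.83 to 4.52). Tap2 fell in 129 (-0.34 ± 0.09, adjusted p = 0.0326), and B2m moved by -0.02 in 129 and -0.12 in B6 without passing.

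Apart from Psmb9 and 1450170_x_at, these calls were lost when single arrays were left out, while the differences moved less, for example to between -0.54 and -0.46 for H2-K1 (1451931_x_at) in B6, between -0.54 and -0.47 for H2-D1 (1451784_x_at) in B6 and between -0.55 and -0.48 for H2-K1 (1425336_x_at) in 129. The 11 in B6 became 2 without B6 3DIV replicate 2, 3 without B6 CHIR99021 replicate 1 and 5 without B6 CHIR99021 replicate 2. The 5 in 129 became 1 without 129 3DIV replicate 1 or either 129 CHIR99021 array, 2 without 129 3DIV replicate 2, and 9 without either B6 normal array. No interaction of strain and CHIR99021 was called among the 32 (0 with limma, 2 at an unadjusted p under 0.05, beside 1.35% of all probe sets called), so that the effect was not shown to differ between strains. The interaction ran from -0.33 to 0.53 over the 32.

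**Figure D5:**
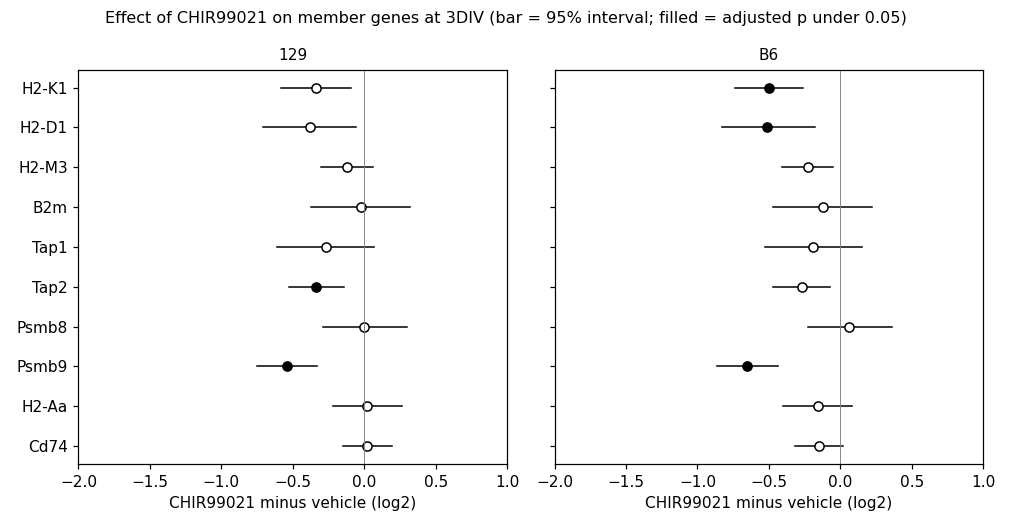
Difference of CHIR99021 minus vehicle at 3DIV (x axis, log2; bars are 95% intervals) for the most abundant probe set of each member gene, in 129 and in B6. Filled points have an adjusted p under 0.05 (Tap2 and Psmb9 in 129; H2-K1, H2-D1 and Psmb9 in B6).

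Other genes of the route moved both ways. Of 12 peptide supply and loading genes, 4 were higher and 1 lower with CHIR99021 in each strain. In 129, Pdia3, a disulfide isomerase of the loading complex, rose by 0.47, Psme3, a proteasome activator subunit, by 0.42, the chaperones Calr by 0.41 and Canx by 0.37, and Psme1 fell by 0.37. In B6, Pdia3 rose by 0.81, Canx by 0.59 and Erap1 by 0.29, and Psme1 fell by 0.38. Left out singly, the 129 3DIV and CHIR99021 arrays each ended the Psme1 call in 129 (-0.44 to -0.30 over all settings), 3 of them that of Calr (not 129 CHIR99021 replicate 1; 0.31 to 0.51) and 129 3DIV replicate 1 that of Canx. In B6 the Psme1 call was lost without B6 3DIV replicate 2 or B6 CHIR99021 replicate 1 (-0.49 to -0.27), and that of Erap1 without either B6 3DIV array or B6 CHIR99021 replicate 2 (0.19 to 0.38).

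Of 23 regulators, 5 were lower and 0 higher with CHIR99021 in 129, and 3 were lower and 2 higher in B6. Rfx5, a subunit of the complex that binds the X box of MHC genes, fell by 0.54 in 129 and by 0.49 in B6 under all 19 settings, and Rfxank, of the same complex, by 0.43 and 0.67. The 2 rises in B6 were those of Ifngr2, a chain of the interferon gamma receptor (0.96, kept under all 19 settings), which was the largest regulator change, and Socs1 (0.43, lost without either B6 3DIV array or B6 CHIR99021 replicate 2, 0.25 to 0.62). Nlrc5, the class I transactivator, fell by 0.47 in 129, and its call and that of Rfxank in 129 were lost without any single 129 3DIV or CHIR99021 array (-0.56 to -0.38 for Nlrc5 and -0.47 to -0.40 for Rfxank).

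Irf8 fell by 0.50 in 129 and by 0.40 in B6, and the call was lost in 129 without 3DIV replicate 1 or CHIR99021 replicate 2 and in B6 without either 3DIV array or CHIR99021 replicate 2. Irf1 fell by 0.41 in 129, lost without 129 3DIV replicate 2 or 129 CHIR99021 replicate 2, and was not called in B6 (0.20), with an interaction of -0.60 (adjusted p = 0.0246). That interaction was lost without any single 3DIV array, either 129 CHIR99021 array or B6 CHIR99021 replicate 1, at -0.67 to -0.53 over all settings. Of the interferon genes, Ifnb1 rose by 0.59 in B6, lost without B6 3DIV replicate 2 or B6 CHIR99021 replicate 2 (0.42 to 0.76). Its levels lay below the array medians on every array. Of 11 class II pathway genes, Ctss fell by 1.06 in 129 and by 1.19 in B6 and Ifi30 by 0.76 in B6, all under 19 of 19 settings. Beside these, microglia genes were lower with CHIR99021, 10 of 17 in 129 (median -0.63, with 1 higher) and 13 of 17 in B6 (median -1.19), and that part was not tested.

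The members' patterns over the 12 arrays are a description only, since arrays of a group share their condition. H2-D1 correlated at 0.996 with Psmb9, 0.992 with Tap1, 0.984 with Psmb8 and 0.974 with B2m, at 0.568 with H2-M3 and at -0.066 with H2-Aa. Outside the members, 3834 probe sets of 1 symbol were above the median level and spanned at least 1 log2 unit between groups. The 5 closest to H2-D1 were Irf8 (0.996), Cd151 (0.995 and 0.993 on a pair of probe sets), Irf7 (0.994) and Shisa5 (0.993). For Psmb8 they were S100a10, Pros1, Parp12 and Psmb10 (0.998 each) and Igtp (0.997). Cd74, which hardly varied, had no such close match, with Sp4 (0.902), Gpx3 (0.869), Dnajb4 (0.868), Mrps11 (0.859) and Slc4a5 (0.857).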

How the data were processed

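RNA of the 12 retina samples was hybridised by the authors to Affymetrix 3′ expression arrays, and the deposited table gives 1 linear intensity per probe set and array after RMA, named in the submitters' processing notes (background correction, quantile normalization and summarisation of probes), with no detection calls. Quantile normalization sets all arrays to 1 distribution, so that differences are relative to the rest of the array. Of 45101 probe sets, 64 control probe sets were left out. Gene symbols came from the platform annotation: 34945 of the tested probe sets have 1 symbol, 932 several and 9160 none listed. Whether 129 transcripts match the probes base for base was not examined.

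Intensities were taken as log2 and fitted with limma 3.58.1 (R 4.3.3; 6 group means, eBayes, prior df 4.69, residual df 6), with Benjamini-Hochberg adjustment over all 45037 probe sets and a limit of 0.05. The 9 contrasts were 3 strain differences, 2 culture and 2 CHIR99021 effects and 2 interactions. They share arrays. The 2 arrays of each group limit the precision, and the spread is pooled over the groups. Where arrays are said not to overlap, the gene had already been called. The share of all probe sets without overlap was not counted, so that such statements are descriptions only. The script was tested on simulated data. A gene's level is that of its single-symbol probe set with the highest mean. The members and gene lists were chosen with earlier results of these data known. All member probe sets were accounted for; of other pathway genes, up to 4 per list with the largest difference past the limit were named for culture and for CHIR99021, and those past the limit for the interactions. Canx and Psme1 in 129, Irf1 and Irf8 beyond those 4, Ciita, H2-Eb1, H2-Ea, H2-Ab1, Erap1 in the strain comparison and the interferon genes were singled out after their values were seen. The alternatives were 7 other settings (replicate block, compared arrays alone, cyclic loess, housekeeping centring on 7 genes, a filter at the median level, trended robust eBayes, q-values) and each of the 12 arrays left out in turn, 19 in all, and for counts of genes the mean of all probe sets of a gene.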

Additional observations from a re-analysis of the deposited data

Results flagged for a closer look

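These values differed between strains by the interaction test itself (limma, adjusted p under 0.05, 129 minus B6), which is why they are listed. For explant culture, Psmb8 had 0.98 on 1422962_a_at, Psmb9 0.68, H2-K1 0.81 on 1425336_x_at and 0.79 on 1427746_x_at, and H2-M3 -0.54. Each of these 5 was lost in at least 6 of the 19 other settings.

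Among the other genes of the pathway, the same test gave 3.50 for H2-T24, 1.05 for Nlrc5, 0.99 for Irf1 and 0.65 for Erap1. It gave 0.87 for Socs1, a feedback inhibitor of interferon signalling, -0.72 for Ifi30, the lysosomal thiol reductase, and -0.62 for Ctss, the protease that degrades the invariant chain. Socs1 was lost in 8 of 19 settings, Ifi30 in 11 and Ctss in 7. For CHIR99021, Irf1 had -0.60, with a fall in 129 (-0.41) and no call in B6 (0.20).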

How the results depend on the processing

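No direction of a called member value turned under any setting. With each array left out in turn, the number of the 32 member probe sets called ran from 6 to 13 for normal retina (9 with all arrays), 1 to 2 for vehicle explants (1), 2 to 3 for CHIR99021 explants (2), 19 to 21 for culture in B6 (21), 20 to 21 for culture in 129 (20), 2 to 12 for CHIR99021 in B6 (11), 1 to 9 for CHIR99021 in 129 (5), and 0 to 12 for the interaction with culture (5). With the compared arrays alone there were 5 in normal retina, 2 in vehicle explants and 1 for the interaction with culture. Housekeeping centring, which shifted the median of all probe sets to 0.10 in normal retina and to -0.14 for the interaction with culture, gave 2 in vehicle explants, 3 for CHIR99021 in 129 and 3 for that interaction. The filter at the median level, which leaves 18 of the 32 tested, gave 2 in vehicle explants, 1 in CHIR99021 explants and 8 for the interaction, and q-values gave 3 in vehicle explants. With the mean of all probe sets of a gene in place of the most abundant one, 8 of the 10 member genes were higher with culture in each strain both ways, at a median of 1.81 in 129 and 1.63 in B6, in place of 3.09 and 2.56. Under it 6 were lower in 129 normal retina (5 otherwise), 1 was higher and 1 lower in 129 vehicle explants (0 and 1), 5 fell with CHIR99021 in B6 (3) and 3 in 129 (2), and the culture interaction was higher for 1 and lower for 1 (2 and 1). The cause of these moves was not tested beyond the number of arrays and probe sets.

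The replicate numbers do not pair the samples: over 15 pairs of groups, same-numbered deviations correlated at -0.107 to 0.0436. With the replicate block, 10 probe sets were called in normal retina and 3 for the interaction with culture, and the other 7 counts were as without it. With 2 arrays a group, small differences cannot be resolved, and near-identical class I transcripts can share probes.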
